A study of Saccharomyces cerevisiae with 232 samples.

Results

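The genes described here encode the aminoacyl-tRNA synthetases of Saccharomyces cerevisiae, the enzymes that attach each amino acid to its tRNA. They were chosen by name, as a list of 36 genes out of the 6692 genes in the deposited expression tables, and all 36 were found. The list holds 21 genes of the cytosolic enzymes and 15 others, of which 14 encode enzymes made for mitochondria and the last, GRS2, is a duplicate of GRS1. Ribosome-protected fragments (footprints) and messenger RNA were measured in 57 strains that each lack a gene tied to tRNA modification, and in their parent, BY4741. The gene was replaced by kanMX in every deletion strain.

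The deletion strains were grouped by the modification they lose. The Elongator group (elp1D, elp2D, elp3D, elp4D, elp5D, elp6D, kti11D, kti12D and kti13D) lacks subunits or partners of Elongator, which begins the side chain on the wobble uridine. The thiolation group (urm1D, uba4D, ncs2D, ncs6D and tum1D) lacks the pathway that puts sulphur on that uridine in the tRNAs for lysine, glutamate and glutamine. The KEOPS group (bud32D, cgi121D and gon7D) lacks subunits of the complex that makes threonylcarbamoyl adenosine beside the anticodon of tRNAs that read codons beginning with A. The Trm9-Trm112 group (trm9D and trm112D) lacks the methyltransferase that finishes the Elongator side chain, and Trm112 also serves other methyltransferases. Wild type was BY4741 throughout, and all strains grew in YPD at 30 °C. Before harvest the cultures of footprint and RNA libraries were given cycloheximide at 100 µg/mL for 30 s, apart from the 6 footprint libraries made without it. Each deletion was represented by 1 strain, so the deletion and any other difference of that strain cannot be told apart.

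A synthetase recognises its own tRNAs, in several cases through the anticodon that these modifications decorate, and the charged tRNA then carries the amino acid to the ribosome. In yeast ALA1, GRS1, HTS1 and VAS1 each make both the cytosolic and the mitochondrial form of their enzyme, so no separate mitochondrial gene stands beside them. Uncharged tRNA activates the kinase Gcn2, which raises translation of GCN4, and the transcription factor Gcn4 activates genes of amino acid synthesis and several synthetase genes.

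Matches to 2 short DNA elements were listed more often before the cytosolic genes than before the others, as counts with no test. The core of the Gcn4 site, TGACTC on either strand, lay within 300 bases before the start codon of 9 of 21 cytosolic genes (42.9%) and 1 of 15 mitochondrial genes (6.67%), against 7.77% of all 5987 genes searched. These sites are shown because the strains with the highest GCN4 footprints, described further on, had more footprints on many of these genes. Each line gives the strand of the gene from the reference genome R64, the build called sacCer3, with the core in capitals.
ILS1: tcgaaacaatgaTGACTCttaagcatgaaa
KRS1: tgaatgatgaaaTGACTCttaatgaacttc
YDR341C: aaagtgtctaatGAGTCAgttatttctttc
VAS1: atttttttagaaGAGTCAcccatacagcct
DED81: caagacattcagTGACTCaagcatcgctta
YHR020W: taagcgatgcttGAGTCActgaatgtcttg
THS1: ttactgtttaaaTGACTCttaccttgtgat
YNL247W: tttcatcgcgaaGAGTCAaaagacattatc
ALA1: gattaaggaactTGACTCtttctttcaaga
MSW1: ctatgcacatcaGAGTCAgattccttaaat
The stretches lie on the plus strand at chrIV:525294-525323 (KRS1), chrVII:672076-672105 (VAS1), chrIX:212283-212312 (THS1), chrXIV:182777-182806 (YNL247W) and chrIV:1003732-1003761 (MSW1). On the minus strand they lie at chrII:84346-84375 (ILS1), chrIV:1153809-1153838 (YDR341C) and chrXV:949139-949168 (ALA1). DED81 and YHR020W are divergent neighbours on chromosome VIII, 437 bases apart, and share the site at chrVIII:143802-143831, read from the minus strand for DED81 and the plus strand for YHR020W. The core begins between 47 (ALA1) and 261 (DED81) bases before the start codon.

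The element called RRPE, AAAATTTT, which reads the same on both strands, lay in the same window of 13 cytosolic genes (61.9%) and of 0 of the 15 mitochondrial genes, against 9.42% of all genes. None of its matches overlapped a Gcn4 core. It is shown for SES1, YDR341C and TYS1, which had fewer footprints in both the Elongator and the thiolation strains. Other genes with a match, FRS1, WRS1 and VAS1, had more footprints in both. Of the 13 genes 4 rose and 6 fell in Elongator strains, and 3 rose and 6 fell in thiolation strains.
SES1: tggtgcaaaaaAAAATTTTtttgtcatttc
YDR341C: gcgaagcgaaaAAAATTTTtagcttcaatt
TYS1: tacaaagtagaAAAATTTTatgaaaattaa
These lie at chrIV:489350-489379 (SES1, plus strand), chrIV:1153733-1153762 (YDR341C, minus strand) and chrVII:867602-867631 (TYS1, minus strand). The PAC element GATGAG, on either strand, was found before 5 cytosolic genes (23.8%) and 1 mitochondrial gene (6.67%), against 19.1% of all genes. A match describes letters only, and no binding was measured.

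In wild type the cytosolic enzymes stood far above the mitochondrial ones. Levels are in RPKM, reads per kilobase of gene and M mapped reads, so genes of different length can be compared. Mean footprint levels of the 21 cytosolic genes ran from 176 RPKM for YNL247W (cysteine) to 786 RPKM for KRS1 (lysine), with a median of 413 RPKM over the 14 wild-type libraries. The 15 mitochondrial genes ran from 6.03 RPKM for ISM1 (isoleucine) to 18.5 RPKM for MSW1 (tryptophan), with a median of 8.76 RPKM. RNA levels ran from 124 to 513 RPKM for the cytosolic genes and from 10.7 to 29.1 RPKM for the mitochondrial genes over 10 wild-type libraries. GRS2 had 7.81 ± 1.04 RPKM of footprints against 527 ± 34.3 RPKM for GRS1 (SD, n = 14 libraries each). No stretch of 27 bases, the length of an RNA read, was shared by 2 members.

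In footprint order KRS1 (786 ± 25.4 RPKM, SD, n = 14 libraries) was followed by SES1 for serine (707 ± 67.7 RPKM) and DED81 for asparagine (694 ± 51.3 RPKM). GUS1 for glutamate (683 ± 26.8 RPKM) and THS1 for threonine (670.0 ± 27.5 RPKM) came next. At the low end of the cytosolic order stood GLN4 for glutamine (285 ± 24.5 RPKM), HTS1 for histidine (269.8 ± 22.6 RPKM) and WRS1 for tryptophan (245 ± 7.85 RPKM). Every gene's range over libraries overlapped that of its neighbour in this order, except for WRS1 above YNL247W and YNL247W above MSW1. FRS1 and FRS2, the beta and alpha subunits of the phenylalanyl enzyme, had nearly equal levels of 354 ± 10.6 and 353 ± 13.1 RPKM.

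**Figure D1:**
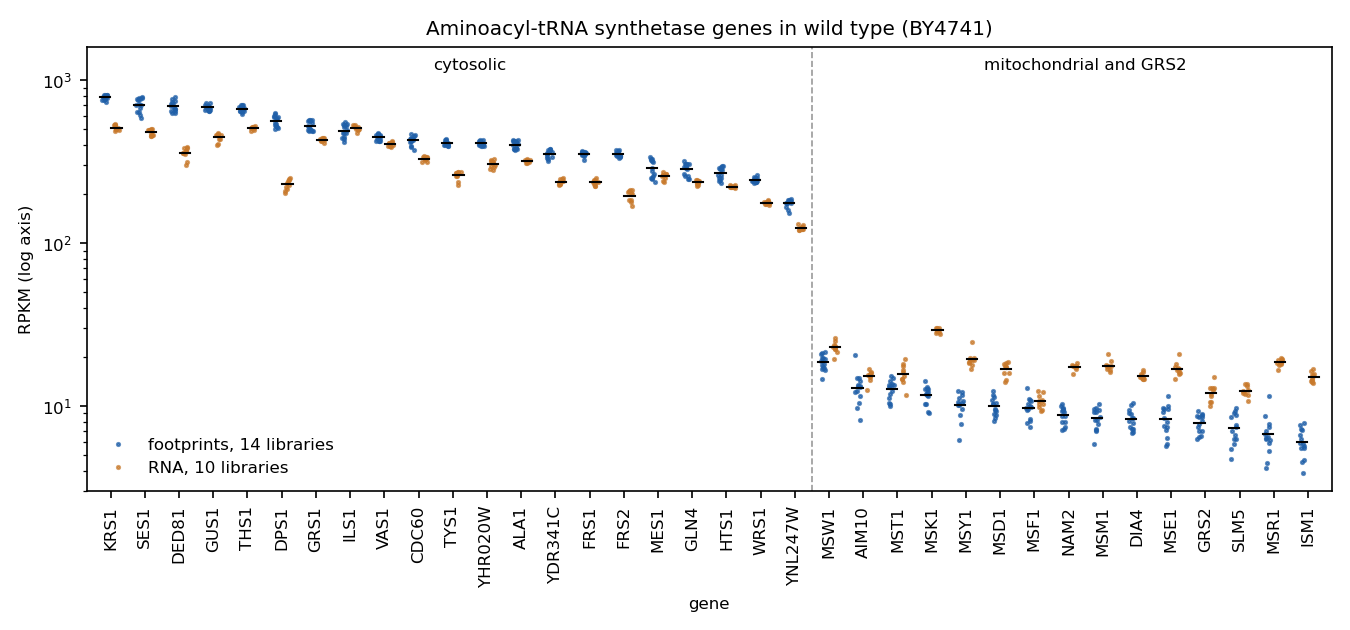
Footprint levels of the 36 synthetase genes in the 14 wild-type libraries, in RPKM on a log axis. The 21 cytosolic means lie between 176 and 786 RPKM and the 15 mitochondrial means between 6.03 and 18.5 RPKM.

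Footprints relative to RNA also differed between the classes. The log2 of footprint over RNA level ran from −0.06 (ILS1, isoleucine) to 1.29 (DPS1, aspartate) among cytosolic genes, with a median of 0.46. Among mitochondrial genes it ran from −1.37 (MSR1, arginine) to −0.13 (MSF1, phenylalanine), with a median of −0.81. The median over the 4220 genes with at least 10 RPKM in both assays was 0.08. Wild-type libraries fell into 3 processing sets, and some members differed between them: SES1 averaged 770.3, 617 and 700.5 RPKM and MES1 (methionine) 325, 249 and 271 RPKM in sets 1, 2 and 3. Changes against all wild-type libraries were therefore also fitted with a term for the set.

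Depths recovered from the values were 0.810 to 16.3 M reads for footprints (median 3.11 M) and 3.76 to 14.1 M for RNA. The gene named in each label was below every wild-type library in all 57 strains, in both assays. Where a level is called higher or lower below, it passed an adjusted p under 0.05 over all genes tested (limma on log2 of RPKM plus 1, Benjamini-Hochberg adjustment). Of the members, 26 passed the footprint filter of a mean of 10 RPKM, namely all 21 cytosolic genes and the mitochondrial MSW1, AIM10, MST1, MSK1 and MSY1. Nothing in the labels says whether libraries of a strain were separate cultures. P-values of footprint changes therefore cover the spread between these libraries only, not that between strains of a group. RNA, and footprints relative to RNA, were fitted by group, so the spread between strains of a group enters those p-values. In bulk cultures a change in the makeup of the culture and a change of RNA per cell cannot be told apart. Where footprints of a group lay wholly outside the wild-type range, the share of all genes that did so was not counted.

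In Elongator strains the enzymes for glutamine, glutamate and lysine, whose tRNAs carry the Elongator side chain, were among the 4 cytosolic genes with the largest rise. GLN4 had 289.7, 366 and 439.6 RPKM (lowest, median and highest of 17 Elongator libraries) against 247, 291 and 318 RPKM in 14 wild-type libraries. The groups overlapped, with 12 of 17 Elongator libraries above every wild-type library and all 9 strains above the wild-type mean. GLN4 rose by 0.31 on the log2 scale (SE 0.039, adjusted p 1.94e-10).

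GUS1 had 701, 812 and 886 RPKM (lowest, median and highest) in Elongator libraries against 647, 681 and 728 RPKM in wild-type libraries. There 15 of 17 Elongator libraries exceeded every wild-type library, and the change was 0.23 (SE 0.0198, adjusted p 4.49e-17). KRS1 had 763, 943 and 1092 RPKM in Elongator libraries against 734, 788 and 818 RPKM in wild-type libraries, a change of 0.22 (SE 0.0250, adjusted p 7.98e-12). For KRS1 14 of 17 Elongator libraries were above every wild-type library, and 8 of 9 strains were above the wild-type mean. FRS1 had 361, 424 and 467 RPKM in Elongator libraries against 326, 357 and 366 RPKM in wild-type libraries, and 16 of 17 Elongator libraries were above the wild-type range (log2 change 0.22, SE 0.0270, adjusted p 6.96e-11).

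Over the 26 tested members, 9 rose and 9 fell in Elongator strains, against 36.4% of all genes higher and 18.1% lower. The members' median log2 change was 0.00 and that of all genes 0.06. The 9 that rose were all cytosolic, and besides the 4 above they were DPS1 (0.21), WRS1 (0.16), VAS1 for valine (0.11), ALA1 for alanine (0.09) and ILS1 (0.08). The 9 that fell were the cytosolic SES1 (−0.21), YDR341C for arginine (−0.20), TYS1 for tyrosine (−0.15), GRS1 for glycine (−0.11), DED81 (−0.11) and YHR020W for proline (−0.09), and the mitochondrial MST1 for threonine (−0.24), AIM10 for proline (−0.23) and MSW1 (−0.22). SES1 had 492.9, 618 and 736 RPKM in Elongator libraries against 586, 711 and 786 RPKM in wild-type libraries, and all 9 strains had a mean below that of wild type.

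The enzymes listed here for some other tRNAs with the Elongator side chain did not move alike. YDR341C and GRS1 fell, ranking 20 and 18 of the 21 cytosolic genes by log2 change, and SES1 (rank 21) and YHR020W fell too. With a term for the set YDR341C ranked 21 and SES1 20. VAS1 and ALA1 rose, and THS1 (−0.07) missed the threshold with an adjusted p of 0.0531 (limma). With each library centred on its median gene, 6 members rose (24.8% of all genes) and 11 fell (29% of all genes). With 1 value per strain, so that the spread between strains sets the error, 10 members were called, 6 higher and 4 lower, against 33.3% of all genes.

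Thiolation strains lack a different part of the same modified uridine, and the same 3 enzymes held ranks 1 (GLN4), 2 (GUS1) and 4 (KRS1) of 21, as they did in Elongator strains. GLN4 had 290.3, 333 and 424 RPKM (lowest, median and highest of 10 thiolation libraries), and rose by 0.27 over the wild-type levels given above (SE 0.0443, adjusted p 5.41e-07). GUS1 had 727, 801 and 907 RPKM and rose by 0.24 (SE 0.0224, adjusted p 2.40e-15). KRS1 had 823, 934 and 994 RPKM in thiolation libraries, so that all 10 stood above the highest wild-type library at 818 RPKM (log2 change 0.23, SE 0.0284, adjusted p 2.81e-10). Both groups are set against the same wild-type libraries.

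Of 26 members, 8 rose and 9 fell in thiolation strains, against 28.3% of all genes higher and 20.3% lower, with a median of −0.03 for the members and 0.03 for all genes. The others that rose were DPS1 (0.23), ALA1 (0.20), WRS1 (0.13), FRS1 (0.10) and VAS1 (0.07). The cytosolic genes that fell were SES1 (−0.29), YDR341C (−0.20), YHR020W (−0.17), DED81 (−0.14), GRS1 (−0.09) and TYS1 (−0.09). For YHR020W all 10 thiolation libraries were below every wild-type library. Of the 5 mitochondrial genes tested, MST1 (−0.38), MSW1 (−0.35) and MSY1 for tyrosine (−0.30) fell. MST1 had 6.74, 10.1 and 13.03 RPKM (lowest, median and highest) in thiolation libraries against 10.1, 13.1 and 15.2 RPKM in wild-type libraries, and the groups overlapped. With median centring 6 rose (21.6% of all genes) and 12 fell (28.4%). With a term for the set 9 rose (27.9% of all genes) and 6 fell (12.5%). With 1 value per strain 7 were called (18.7% of all genes), and with replicate 1 left out 11 were (29.6% of all genes).

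**Figure D2:**
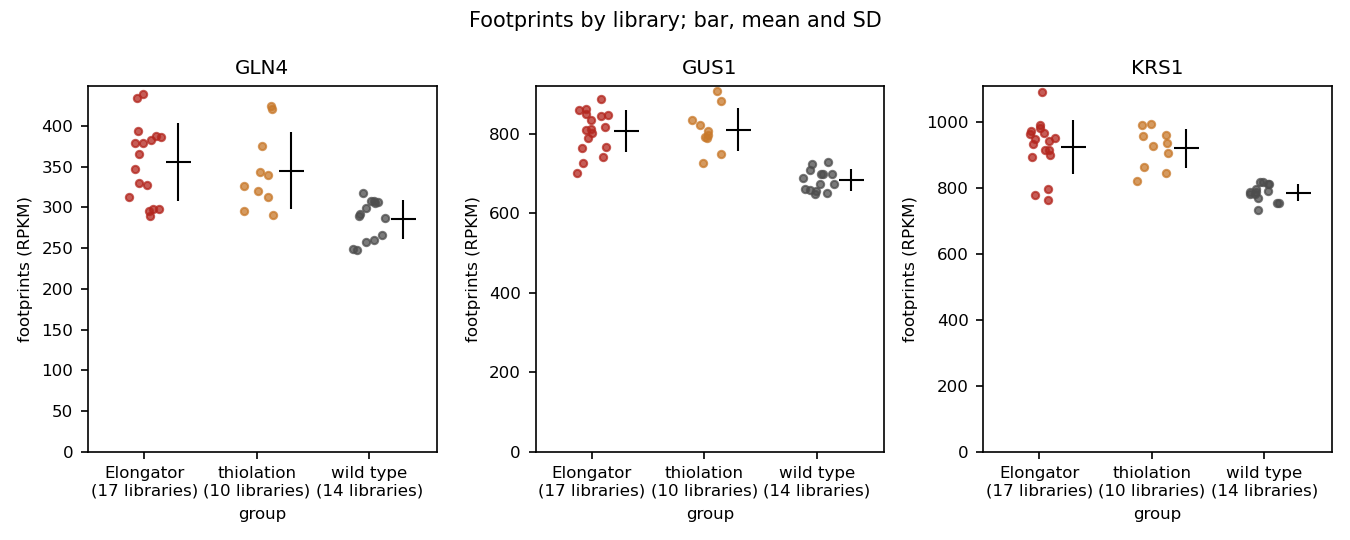
Footprint levels of GLN4, GUS1 and KRS1 by library, in RPKM, in Elongator strains, thiolation strains and wild type. Each point is a library, and the bars give the mean and SD of each group. All 10 thiolation libraries lie above the wild-type range for KRS1.

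The Elongator and thiolation groups differed in 5 members when the difference itself was tested, where 25.4% of all genes did. FRS1 (0.12, Elongator minus thiolation, adjusted p 0.00136), MES1 (0.12, adjusted p 0.0490), YHR020W (0.08, adjusted p 0.0172) and MSY1 (0.22, adjusted p 0.0347) were higher in Elongator strains, and ALA1 (−0.12, adjusted p 0.00385) was lower (limma). ALA1 had 360.0, 438 and 478 RPKM in Elongator libraries and 413, 458 and 529 RPKM in thiolation libraries. With 1 value per strain 0 members differed, where 0.444% of all genes did. Without replicate 1 it was 1 member (6.56% of all genes), and without replicate 2 it was 0 (3.73%).

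In both groups the 8 cytosolic genes without an RRPE match included 5 that rose and 0 that fell. Of the 13 genes with it, 4 rose and 6 fell in Elongator strains, and 3 rose and 6 fell in thiolation strains. KEOPS strains gave 1 rise and 6 falls among the 8 without a match (median log2 change −0.42) and 2 rises and 7 falls among the 13 with it (median −0.14). In Trm9-Trm112 strains 0 rose and 3 fell without a match, and 1 rose and 7 fell with it. By the Gcn4 core, 4 of 9 genes with it and 5 of 12 without it rose in Elongator strains, and 3 fell on each side. In thiolation strains 3 of the 9 and 5 of the 12 rose, and 3 fell on each side. KEOPS strains gave 3 rises and 4 falls with the core (median −0.01) and 0 rises and 9 falls without it (median −0.40). In Trm9-Trm112 strains 0 rose and 7 fell with the core, and 1 rose and 3 fell without it. These counts describe the genes and were not tested. The summed share of the codons AAA, CAA and GAA, which the thiolated tRNAs read, had a median of 13.8% in cytosolic synthetase genes, 12.6% in mitochondrial ones and 11.3% over all genes. Across the 21 cytosolic genes its Pearson r with the log2 footprint change was −0.35 in Elongator and −0.27 in thiolation strains, a description over genes that share libraries.

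RNA changes of the cytosolic genes lay close to their footprint changes in both groups. RNA was tested for all 36 members, with 1 library per strain. In Elongator strains 3 rose, GLN4 (0.25), GUS1 (0.19) and FRS1 (0.18), and 3 fell, MSF1 (−0.35), SES1 (−0.22) and TYS1 (−0.20), against 15.9% of all genes higher and 10.1% lower. With median centring 1 rose and 7 fell, against 14% and 11.8% of all genes. With quantile normalisation 0 rose and 6 fell, against 12.2% of all genes in each direction, so that the 3 rises lost their call. In thiolation strains GLN4 rose (0.28, adjusted p 0.00985) and YHR020W fell (−0.19, adjusted p 0.0468), against 11.5% of all genes higher and 5.19% lower (limma). With median centring 0 rose and 1 fell (7.06% and 6.94% of all genes), and with quantile normalisation 0 rose and 6 fell (5.98% and 6.82%), so that the rise of GLN4 lost its call in both. With any of the 5 thiolation strains left out 1 member was called. Across the 21 cytosolic genes the footprint and RNA changes had a Pearson r of 0.97 and a Spearman rho of 0.97 in Elongator strains, and of 0.88 and 0.92 in thiolation strains. The largest difference between the footprint and the RNA change of a cytosolic gene was 0.0957 in Elongator and 0.169 in thiolation strains on the log2 scale.

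The deletion of KEOPS subunits gave the largest falls of the cytosolic enzymes among the 4 groups. GUS1 had 325 and 316 RPKM in gon7D, 297 and 343 RPKM in bud32D, and 534 and 532 RPKM in cgi121D, against 647 to 728 RPKM in wild type. All 6 KEOPS libraries were below every wild-type library, with cgi121D nearest to it. The group change of GUS1 was −0.85 (SE 0.0264, adjusted p 7.96e-43). GLN4 (135, 215 and 236 RPKM, lowest, median and highest) and SES1 (370.3, 448 and 584 RPKM) were likewise below the wild-type range in all 6 KEOPS libraries. Their wild-type ranges were 247 to 318 RPKM and 586 to 786 RPKM. YHR020W (242, 327 and 383 RPKM) was also below its wild-type range of 392 to 429 RPKM in all 6.

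Over the 26 members 6 rose and 13 fell in KEOPS strains, against 49.9% of all genes higher and 24.1% lower. The members' median log2 change was −0.11 where that of all genes was 0.17, and the median of the cytosolic genes was −0.20. The genes that fell were all cytosolic. They were GUS1, FRS2 (−0.67), MES1 (−0.64), CDC60 for leucine (−0.63), SES1 (−0.59), GLN4 (−0.51), YHR020W (−0.38), ALA1 (−0.34), FRS1 (−0.29), YNL247W (−0.25), VAS1 (−0.20) and HTS1 (−0.19), with WRS1 the smallest (−0.14, and 0.01 without gon7D). FRS2 was uneven, with 359 and 144 RPKM in bud32D, 208 and 132 RPKM in gon7D and 284 and 287 RPKM in cgi121D, against 335 to 375 RPKM in wild type.

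Those that rose were the cytosolic ILS1 (0.28), DED81 (0.14) and KRS1 (0.10) and the mitochondrial MST1 (0.48), AIM10 (0.27) and MSY1 (0.21, and −0.06 without gon7D). ILS1 had 580.3 and 584 RPKM in gon7D, 579.6 and 746 RPKM in bud32D and 546 and 550.4 RPKM in cgi121D, against 418 to 554 RPKM in wild type, so cgi121D overlapped wild type and the other strains did not. DED81 and KRS1 rested on cgi121D, for without it their changes were −0.09 and −0.22, and they were −0.06 and −0.10 with median centring. With median centring 1 member rose and 21 fell, against 31.5% and 38.6% of all genes. With 1 value per strain 13 were called, 2 higher and 11 lower, where 54.9% of all genes were.

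Enzymes for tRNAs that carry the KEOPS modification stood at both ends. ILS1 ranked 1 of the 21 cytosolic genes, DED81 2 and KRS1 3, whereas SES1 ranked 17 and MES1 19. THS1 (−0.01) and YDR341C (0.03) missed the threshold with adjusted p of 0.889 and 0.457 (limma). MES1 lies 1838 bases from the deleted BUD32 on chromosome VII, and had 130.4 and 183 RPKM in bud32D against 236 to 339 RPKM in wild type. Its change was −0.51 without bud32D.

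The KEOPS strains differed among themselves. In gon7D 5 members rose and 16 fell, against 49.7% of all genes higher and 22.3% lower, and in bud32D 4 rose and 17 fell, against 44.6% and 22%. In cgi121D 7 rose and 10 fell, against 18.1% and 15.9%. KRS1 had 1291.0 and 1360 RPKM in cgi121D against 734 to 818 RPKM in wild type (log2 change 0.75, adjusted p 1.16e-21), while in bud32D it fell by 0.41 and in gon7D its change was −0.03. DPS1 (0.63), DED81 (0.60) and YDR341C (0.54) rose with KRS1 in cgi121D. MST1 had 24.4 and 31.6 RPKM in gon7D, 19.4 and 17.6 RPKM in bud32D, and 11.02 and 11.3 RPKM in cgi121D, against 10.1 to 15.2 RPKM in wild type. Its group change was 0.18 without gon7D and 0.80 without cgi121D, and the value without gon7D missed the threshold (adjusted p 0.184, limma).

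RNA in KEOPS strains rose for 10 of 36 members and fell for 14, against 46.9% of all genes higher and 16.3% lower. The RNA falls were all cytosolic and were led by GUS1 (−0.91), SES1 (−0.67), FRS2 (−0.66), MES1 (−0.55), GLN4 (−0.54) and FRS1 (−0.50). Of the 10 that rose 8 were mitochondrial, among them SLM5 for asparagine (0.79), MST1 (0.61), MSF1 (0.41), ISM1 (0.40) and NAM2 for leucine (0.32), and the cytosolic ones were ILS1 (0.24) and THS1 (0.16), at −0.00389 and −0.08 with median centring. GUS1 RNA was 192 RPKM in gon7D, 200 RPKM in bud32D and 348 RPKM in cgi121D. With median centring 2 of the 36 rose and 21 fell, against 21.9% and 33.9% of all genes. Across the 21 cytosolic genes the footprint and RNA changes had a Pearson r of 0.90 and a Spearman rho of 0.91.

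**Figure D3:**
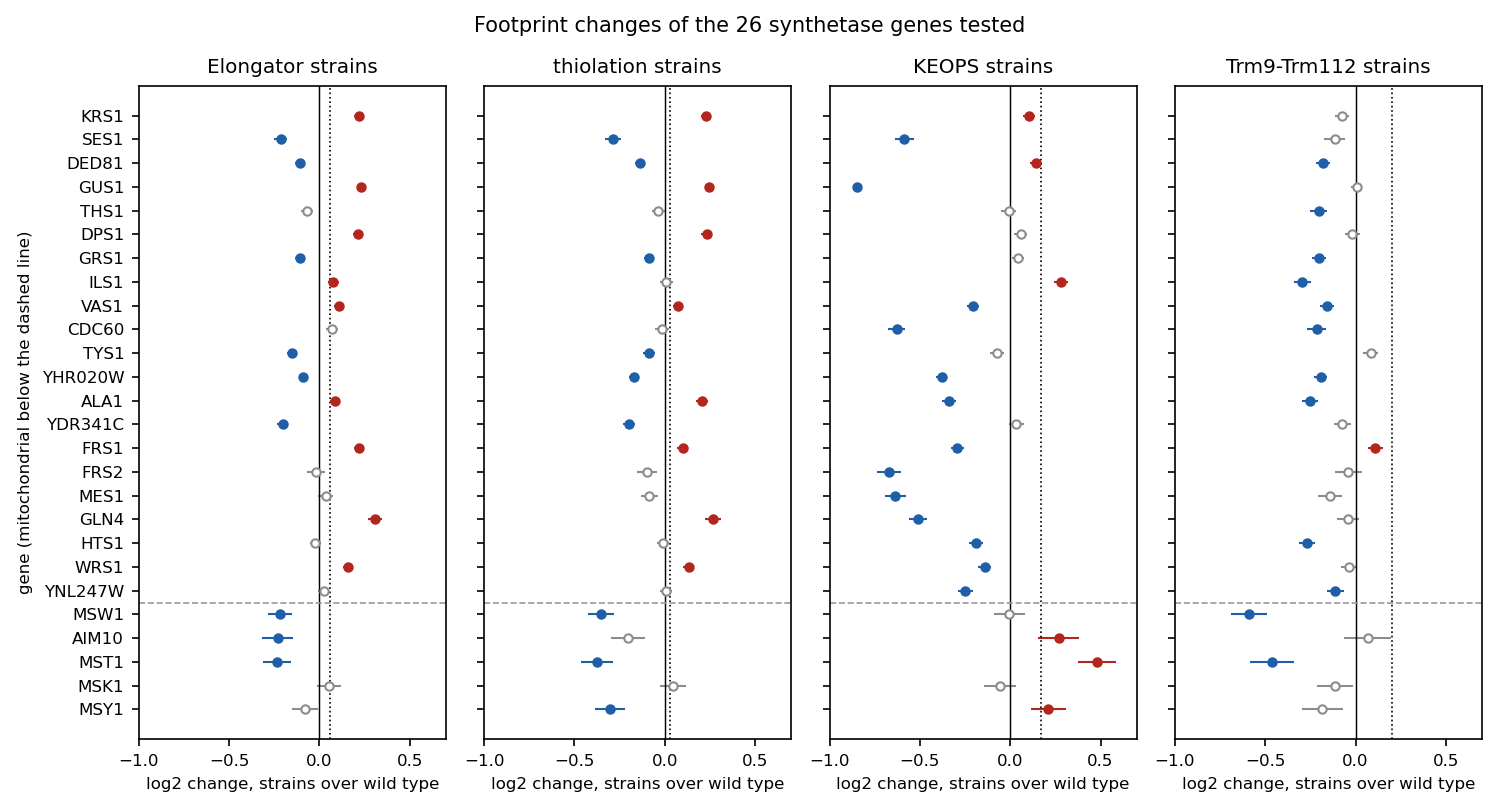
Log2 footprint change of the tested synthetase genes in the Elongator, thiolation, KEOPS and Trm9-Trm112 strains against wild type, with standard errors. GLN4, GUS1 and KRS1 lie above 0 in the Elongator and thiolation strains, and GUS1 lies at −0.85 in the KEOPS strains.

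Trm9 and Trm112 finish the side chain that Elongator begins, yet the enzymes for lysine, glutamate and glutamine were not called there without centring. KRS1 changed by −0.07, GUS1 by 0.01 and GLN4 by −0.04, with adjusted p of 0.0975, 0.884 and 0.544 (limma). GUS1 had 632, 691 and 730.1 RPKM (lowest, median and highest of 4 Trm9-Trm112 libraries) against 647, 681 and 728 RPKM in wild type. YDR341C (−0.07) was not called either, and GRS1 fell by 0.20 on the log2 scale. With each library centred on its median gene, all 21 cytosolic genes were called lower, these enzymes included, against 26.3% of all genes.

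Of the 26 members 1 rose, FRS1 (0.11), and 12 fell, against 50.6% of all genes higher and 10.3% lower. The genes that fell were the mitochondrial MSW1 (−0.59) and MST1 (−0.46) and the cytosolic ILS1 (−0.30), HTS1 (−0.27), ALA1 (−0.25), CDC60 (−0.21), THS1 (−0.20), GRS1 (−0.20), YHR020W (−0.19), DED81 (−0.18), VAS1 (−0.16) and YNL247W (−0.11). The members' median was −0.13 where that of all genes was 0.20. With median centring 0 members rose and 25 fell, against 18.5% and 26.3% of all genes, and FRS1 changed by −0.11. With 1 value per strain 3 members were called, all lower, where 23.8% of all genes were. With replicate 1 left out 5 were called (32.3% of all genes), and with replicate 2 left out 8 were (39.8%). Without trm112D, which leaves trm9D alone, 8 were called.

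Most of these calls came from trm112D, where 2 members rose and 13 fell, against 57% of all genes higher and 13.9% lower. In trm9D 0 rose and 8 fell, against 9.41% and 3.83% of all genes. MSW1 had 9.37 and 8.65 RPKM in trm112D and 16.2 and 15.3 RPKM in trm9D, against 14.7 to 21.3 RPKM in wild type, so trm9D overlapped wild type and trm112D did not. TYS1 rose by 0.39 in trm112D and fell by 0.22 in trm9D. A trm112D library was the shallowest of all, at 0.810 M reads. RNA fell for ILS1 (−0.36), MSW1 (−0.36), GRS1 (−0.28), SES1 (−0.28) and THS1 (−0.26) of the 36 members and rose for 0, against 11.6% of all genes higher and 3.66% lower. The number of members called by RNA was 0 without trm112D and 10 without trm9D.

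Whether footprints changed by more or less than RNA (translational efficiency) was tested for 25 members. No member was called in any of the 4 groups by limma. At an unadjusted p under 0.05 the number of members was 0 in Elongator, 0 in thiolation, 2 in KEOPS and 0 in Trm9-Trm112 strains. Few genes of any kind were called, 0.163% in Elongator, 0% in thiolation, 6.42% in KEOPS and 0.0233% in Trm9-Trm112 strains, of 4300 tested. In KEOPS strains 1 member was called after quantile normalisation and 2 without cgi121D.

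FRS1 and FRS2 encode the subunits of a single enzyme, which holds equal numbers of both, and their ratio was higher in Elongator strains than in wild type. The log2 ratio of FRS1 to FRS2 footprints was 0.25 ± 0.15 in Elongator strains (SD, n = 9 strains) against 0.01 ± 0.08 in wild type (SD, n = 14 libraries). The difference of 0.24 had an adjusted p of 0.000866 by an exact permutation test, two-sided and adjusted over 8 comparisons. In thiolation strains the ratio was 0.21 ± 0.17 (SD, n = 5 strains; difference 0.20, exact permutation, adjusted p 0.00550), but without replicate 1 the difference was 0.15 and missed the threshold (exact permutation, adjusted p 0.0850).

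In KEOPS strains the footprint ratio was 0.39 ± 0.29 (SD, n = 3 strains; difference 0.38, exact permutation, adjusted p 0.00550), and this rested on replicate 2. Replicates 1 and 2 stood at −0.54 and 1.12 in bud32D, 0.11 and 1.30 in gon7D and 0.16 and 0.16 in cgi121D, so the libraries of bud32D lay on both sides of wild type. Without replicate 1 the difference from wild type was 0.85, and without replicate 2 it was −0.09 (exact permutation, adjusted p 0.00588 and 0.356).

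The ratio of the RNAs moved by similar amounts in the Elongator and thiolation groups. It was 0.51 ± 0.08 in Elongator strains and 0.54 ± 0.09 in thiolation strains against 0.27 ± 0.11 in wild type (SD, n = 9 strains, 5 strains and 10 libraries). The differences of 0.23 and 0.27 had adjusted p of 0.000866 and 0.00355 (exact permutation). In KEOPS strains the RNA difference of 0.16 had an adjusted p of 0.147, and a term for the set gave −0.02 (exact permutation). In Trm9-Trm112 strains neither ratio passed, with differences of 0.15 for footprints and 0.23 for RNA (exact permutation, adjusted p 0.133 and 0.121). Wild-type libraries stand there beside strain means, and the wild-type spread is between libraries of a single strain.

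**Figure D4:**
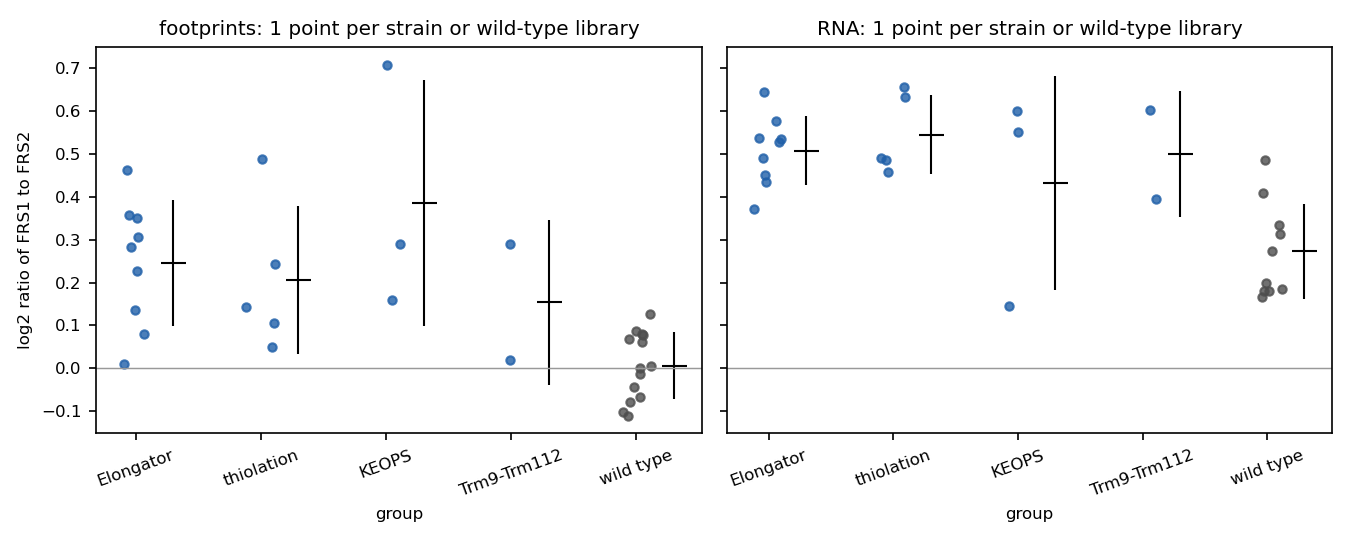
Log2 ratio of FRS1 to FRS2 in footprints and in RNA, with a point for each strain of the deletion groups and for each wild-type library. The Elongator strains average 0.25 in footprints against 0.01 in wild type, and 0.51 in RNA against 0.27.

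Outside the groups, the largest rises of cytosolic synthetases came in trm7D and pus3D. Trm7 methylates riboses in the anticodon loop of the tRNAs for phenylalanine, tryptophan and leucine, and Pus3 makes pseudouridine in the anticodon arm of many tRNAs. In trm7D 14 of 26 members rose and 4 fell, against 30.6% of all genes higher and 16.9% lower. YDR341C had 732 and 736 RPKM in trm7D against 318 to 381 RPKM in wild type, with no overlap (log2 change 1.05, SE 0.0628, adjusted p 3.30e-25). TYS1 had 749 and 711 RPKM in trm7D against 396 to 435 RPKM in wild type (0.82, adjusted p 1.06e-21). DPS1 (0.58), YHR020W (0.54), KRS1 (0.50), ILS1 (0.47), VAS1 (0.41) and DED81 (0.40) followed.

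The members that fell in trm7D were GLN4 (−0.41), MSK1 for mitochondrial lysine (−0.34), CDC60 (−0.26) and GRS1 (−0.12). Among the enzymes of the tRNAs that Trm7 modifies, CDC60 fell, WRS1 rose (0.18), and FRS1 (−0.11) and FRS2 (0.18) missed the threshold with adjusted p of 0.102 and 0.144 (limma). With the set as a term 11 of the rises and 3 of the falls were called as well. With median centring 9 members rose and 7 fell in trm7D. The share of all genes under that centring is not given for trm7D. These centred counts therefore cannot be compared with all genes.

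In pus3D 11 members rose and 3 fell, against 19.2% of all genes higher and 17.2% lower. YHR020W had 647 and 638 RPKM in pus3D against 392 to 429 RPKM in wild type (0.65, adjusted p 1.10e-19). DED81 had 1043 and 1051 RPKM in pus3D against 626 to 786 RPKM in wild type (0.60, adjusted p 2.23e-16). The divergent genes thus rose together there, as they did in trm7D (0.54 for YHR020W and 0.40 for DED81), while in cgi121D DED81 rose by 0.60 and YHR020W fell by 0.15. ALA1 went the other way in pus3D, with 272 and 276 RPKM against 374 to 432 RPKM in wild type, and its change of −0.55 was the lowest of ALA1 in any strain tested. MSK1 (−0.47) and GLN4 (−0.32) also fell in pus3D.

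GCN4 footprints were highest in trm7D, pus3D and cgi121D. They stood at 1006 and 1156 RPKM in trm7D, 688 and 764 RPKM in pus3D and 603 and 623 RPKM in cgi121D, against 23.4 to 134 RPKM in wild type, with log2 changes of 4.91, 4.34 and 4.10. In trm7D 8 of the 9 cytosolic genes with the Gcn4 core shown above rose and 0 fell, and of the 12 without it 5 rose and 3 fell, with median changes of 0.41 and 0.09. In pus3D 6 of the 9 rose and 1 fell, against 5 and 1 of the 12. In cgi121D 5 of the 9 rose and 1 fell, against 2 and 7 of the 12. In the strains next in GCN4 footprints the counts varied. In gon7D (GCN4 log2 change 2.89) 1 of the 9 rose and 6 fell, against 0 and 10 of the 12, and in rit1D (2.69) 4 of the 9 rose and 0 fell, against 1 and 0 of the 12. GCN4 was called higher in 22 strains. The share of genes that rose was larger with the core than without it in 9 of these strains, smaller in 12 and equal in 1, and the median change was higher with the core in 14. These counts describe a match of letters, and no test of them was made. GCN4 was also higher in the Elongator (1.75), thiolation (1.32) and KEOPS (2.93) groups.

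**Figure D5:**
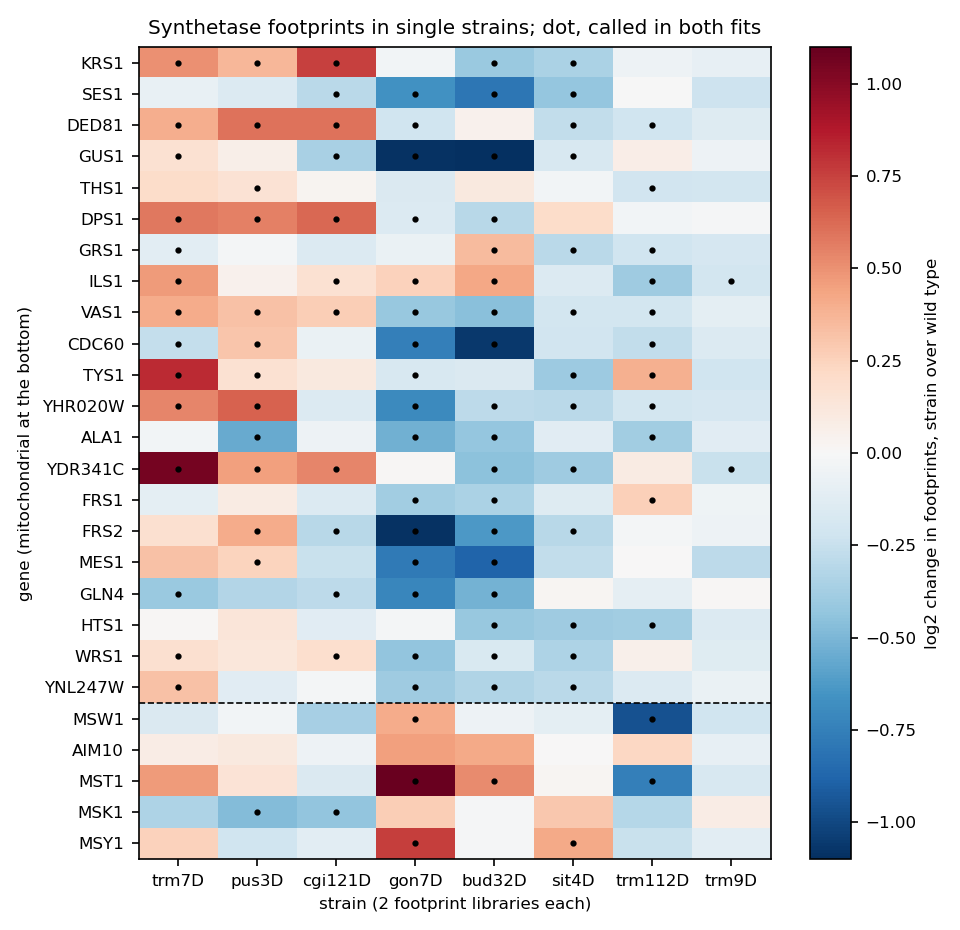
Log2 footprint change of synthetase genes against wild type in single deletion strains. YDR341C reaches 1.05 in trm7D, GUS1 falls to −1.09 in gon7D and bud32D, and MSW1 falls to −0.96 in trm112D.

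In sit4D, which lacks a protein phosphatase that acts on Elongator and in other pathways, 2 members rose and 17 fell, against 26.9% of all genes higher and 23.7% lower. The largest falls there were SES1 (−0.43), TYS1 (−0.40), HTS1 (−0.39), YDR341C (−0.39) and KRS1 (−0.34), and the genes that rose were MSY1 (0.42) and DPS1 (0.20). KRS1 and GUS1 (−0.17) thus fell in sit4D, while both rose in the Elongator group. The difference between sit4D and that group was not tested.

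Over the 56 strains with 2 libraries, 318 of 1456 tests of a member in a strain were called (21.8%), 138 higher and 180 lower, where 16.3% of all gene-by-strain tests were. With replicate 1 or replicate 2 of every deletion strain left out the number was 118 or 100. Of the 318 calls 195 were also made when the set entered the fit, and 19 strains had no member called. KRS1 rose in 17 strains and DPS1 in 17, of which 15 and 12 held with the set as a term. GUS1 rose in 12 strains, all of them also with that term, and it fell in 5, namely gon7D, bud32D, cgi121D, sit4D and mod5D. SES1 fell in 18 strains and rose in 0, but 8 of its 18 falls held with the set as a term. YHR020W fell in 13 strains, of which 10 held.

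In 18 strains at least 5 members were called both without and with a term for the set. They were trm7D, pus3D, sit4D, trm112D, gon7D, bud32D and cgi121D, 7 of the Elongator group (elp1D to elp6D and kti11D) and 4 of the thiolation group (urm1D, uba4D, ncs2D and ncs6D). GLN4 rose most in kti11D (0.62) and urm1D (0.57), GUS1 in urm1D (0.39), and KRS1 within these groups in elp6D (0.40). SES1 fell most within these groups in elp4D (−0.47), elp2D (−0.44) and ncs2D (−0.40). MST1 fell by 0.78 in ncs6D. In kti12D and tum1D GLN4 changed by 0.04 and 0.05, GUS1 by 0.06 and 0.11, and KRS1 by −0.03 and 0.12. Of the 26 members 1 rose and 7 fell in kti12D, against 14.2% and 11.1% of all genes. In tum1D 1 rose and 4 fell, against 7.87% and 4.74%.

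Most enzymes of narrow tRNA targets were not called in the strains that lack the modification. FRS1 and FRS2 were not called in tyw1D, trm12D, tyw3D or tyw4D, which lack steps of the wybutosine that marks phenylalanine tRNA. ALA1 was not called in tad1D, MES1 in rit1D, or SES1 in trm44D. SES1 was called lower in mod5D (−0.30), tan1D (−0.28) and trm140D (−0.30), but with the set as a term its changes there were −0.11, −0.09 and −0.11 and not called. In mod5D, which lacks the isopentenyl group beside the anticodon, FRS1 had 250.0 and 239 RPKM against 326 to 366 RPKM in wild type, with no overlap (−0.53, adjusted p 2.87e-11). Its RNA change in mod5D was −0.32, in 1 library. GLN4 had 197 and 178 RPKM in mod5D against 247 to 318 RPKM in wild type, a change of −0.60.

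Footprints taken without cycloheximide gave a view of trm7D apart from the drug-treated libraries. With 1 library per strain there is no test, and differences of at least 1.5-fold are given. Of the 24 members with enough reads 6 were past that size in trm7D, all of them higher. Of all genes 23% were past it there in either direction, a share near that of the members. In elp3D, mod5D, tan1D and tyw4D 0 members were past it. Over the 5 strains 6.62% of all values passed, in either direction. YDR341C had 759 RPKM in trm7D against 349 RPKM in wild type, DPS1 1065 against 580.3 RPKM, TYS1 726 against 405 RPKM, and KRS1 1397 against 862 RPKM. YHR020W and DED81 were past it as well, at log2 changes of 0.62 and 0.59. FRS1 in mod5D had 272.5 RPKM against 364 RPKM in wild type, a log2 change of −0.42 that is short of 1.5-fold. The strain field of these libraries names BY4741 while their titles name the deletion, and the titles were followed.

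RNA of single strains, with 1 library each, lay outside the wild-type range and at least 1.5-fold from its mean mainly in gon7D and bud32D. Over all strains 3.07% of all gene-by-strain values did so. In gon7D 7 of 36 members were above and 11 below, against 28.1% and 8.59% of all genes. In bud32D 5 were above and 8 below, against 26.1% and 9.34%, the members above being mitochondrial genes or GRS2 and those below cytosolic. Elsewhere only MSF1 in elp4D and FRS2 in sit4D (both below) and YDR341C in trm7D (383 RPKM, above) passed.

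Mitochondrial genes near the filter were also read without it. There 7 of 15 fell in Elongator strains (14.6% of all genes), 5 in thiolation strains (16.3%) and 4 in Trm9-Trm112 strains (7.85%), while 11 of 15 rose in KEOPS strains (45.5%), of 6410 genes tested. Their levels rest on few reads, since the largest wild-type mean was 18.5 RPKM.

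The other genes of tRNA charging and maturation were read from a list of 19, of which 16 passed the footprint filter. In Elongator strains 7 rose and 0 fell, in thiolation strains 5 rose and 2 fell, in KEOPS strains 5 rose and 8 fell, and in Trm9-Trm112 strains 9 rose and 0 fell. The shares of all genes higher and lower were 36.4% and 18.1% in Elongator, 28.3% and 20.3% in thiolation, 49.9% and 24.1% in KEOPS and 50.6% and 10.3% in Trm9-Trm112 strains. ARC1 encodes the protein that binds Gus1 and Mes1 and carries tRNA to them. It had 862, 934 and 1040.2 RPKM (lowest, median and highest) in Elongator libraries and 827, 933 and 1013 RPKM in thiolation libraries, against 703, 738 and 816 RPKM in wild type. All 17 Elongator and all 10 thiolation libraries were above every wild-type library (log2 changes 0.32 and 0.30). In KEOPS strains ARC1 fell with GUS1 and MES1, to 371, 438 and 650.3 RPKM, a change of −0.64.

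Also in KEOPS strains MAF1, the repressor of RNA polymerase III, rose (0.67), while LHP1, which binds new tRNA transcripts (−0.62), and GCN1, which acts with Gcn2 (−0.57), fell. In RNA 17 of the 19 passed the filter, and 5 rose in Elongator, 3 in thiolation, 7 in KEOPS and 4 in Trm9-Trm112 strains. RNA of 5 fell, all in KEOPS strains. The shares of all genes with higher RNA were 15.9%, 11.5%, 46.9% and 11.6% in these 4 groups, and 16.3% had lower RNA in KEOPS strains.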

How the data were processed

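Footprints (ribosome-protected fragments of monosomes after RNase I) and RNA were read in 127 and 67 libraries, with 14 and 10 of wild type, and footprints without cycloheximide in 6. The 32 RiboMeth-seq samples were not used here. Cycloheximide was given at 100 µg/mL for 30 s, per the labels' protocols. The authors deposited RPKM for 6692 genes. Per the submitters' processing notes, TopHat2 2.0.12, SAMtools, HOMER 4.6 and sacCer3 were used. A table of ratios deposited by the authors served only to tie strains to wild-type libraries, which gave 3 processing sets; dus2D matched none.

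Values were log2 of RPKM plus a pseudocount of 1, and fold changes are on that scale. Tests were made with limma 3.58.1 (R 4.3.3, empirical Bayes with trend) on genes averaging 10 RPKM or more. There were 4281 such genes in footprints, 5031 in RNA and 4300 in the fit of translational efficiency, an interaction of assay and group. Footprint fits had a coefficient per strain, and group changes are means of these. Fits of RNA and of translational efficiency had a coefficient per group. P-values were adjusted by Benjamini-Hochberg over all genes tested. The FRS1 to FRS2 ratio was tested by exact permutation (SciPy 1.17.1). The fits were checked on simulated data, drawn with independent noise per library and no spread between strains or sets. A limit on recovery was set there for footprints and RNA only, not for translational efficiency. Depths came from RPKM steps and coding lengths, with 95.3% to 98.2% of low values whole within 0.1 reads (20% by chance), and duplicate reads were not marked. Motifs were searched in R64, the build of sacCer3.

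The members and lists were chosen with earlier results of these data known. Named genes are all members called in a group (at most 12 a direction) and enzymes of a strain's target tRNAs, though not of every such tRNA. Named strains are those with at least 5 members called both without and with the set term. The alternatives were the set as a term, median centring, quantile normalisation, 1 value per strain, other filters and pseudocounts, a replicate block, and leaving out strains or replicates. The set term with median centring, and the FRS1 to FRS2 ratio without replicate 1 or 2, were added after seeing the data.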

Additional observations from a re-analysis of the deposited data

Results flagged for a closer look

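In 8 of the 108 groups tested, the RNA level of a member in a library stood far from the rest of its group. Chance marks about 1 in 20 groups, which is near what was seen. Within thiolation strains these were GRS1 in tum1D (426 RPKM), YHR020W in ncs2D (254 RPKM), VAS1 in uba4D (449 RPKM) and MST1 in urm1D (12.9 RPKM). Within Elongator strains they were HTS1 in elp1D (207 RPKM), ILS1 in kti13D (479 RPKM) and CDC60 in kti11D (324 RPKM). In wild type it was MSY1 in library 6 (24.7 RPKM).

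The footprint changes of 5 members differed between Elongator and thiolation strains in a test of the difference (limma). They were ALA1 (−0.12), MES1 (0.12), FRS1 (0.12), YHR020W (0.0791) and MSY1 (0.22), given as Elongator minus thiolation on the log2 scale.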

How the results depend on the processing

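Of 1465 single-member results under an alternative, 1218 kept their direction and side of the threshold, 229 lost the call and 18 reversed. Counts of members called changed as follows. With 1 value per strain they were 10 (Elongator footprints), 7 (thiolation), 3 (Trm9-Trm112) and 0 (Elongator minus thiolation). Median centring gave 25 for Trm9-Trm112 footprints, 2 for Elongator minus thiolation, 1 for thiolation RNA (a fall) and 8 for Trm9-Trm112 RNA, and with the set term as well 23 for Trm9-Trm112 footprints and 3 for Elongator minus thiolation. Quantile normalisation gave 3 for Elongator minus thiolation, 6 for thiolation RNA (all falls), 2 for Trm9-Trm112 RNA and 1 for KEOPS translational efficiency. The set term gave 1 for thiolation RNA, and a limit of 2-fold gave 6 for RNA beyond the wild-type range and 1 for drug-free footprints. The cause was not tested in any of these.

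Leaving out libraries or strains in turn gave 100 to 118 calls over 56 strains, 12 to 19 (Elongator footprints), 11 to 18 (thiolation), 15 to 23 (KEOPS), 5 to 15 (Trm9-Trm112) and 0 to 1 (Elongator minus thiolation). For RNA it gave 5 to 7 (Elongator), 1 to 1 (thiolation), 16 to 33 (KEOPS) and 0 to 10 (Trm9-Trm112), and for KEOPS translational efficiency 0 to 2. The FRS1 to FRS2 footprint difference ranged from 0.147 to 0.250 in thiolation and from −0.0946 to 0.853 in KEOPS strains without replicate 1 or 2, and from 0.235 to 0.246 in Elongator strains. The FRS1 to FRS2 RNA difference was −0.0158 in KEOPS strains with the set term and 0.14 in Trm9-Trm112 strains, where it then passed (exact permutation, p 0.0404).

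In KEOPS footprints DED81 reversed to −0.0611 when centred and −0.0296 with the set term as well, and KRS1 to −0.0994 and −0.0248. With a strain left out DED81 ranged from −0.0882 (without cgi121D) to 0.323, KRS1 from −0.222 (without cgi121D) to 0.360, WRS1 from −0.304 to 0.00579 (without gon7D) and MSY1 from −0.0610 (without gon7D) to 0.374. MSY1 was −0.0272 with the set term and centring. FRS1 in Trm9-Trm112 strains was −0.113 centred, −0.0809 with the set term as well, −0.0449 without trm112D and 0.261 without trm9D. In KEOPS RNA, ILS1 (−0.00389) and THS1 (−0.0801) reversed when centred, MSD1 (−0.0432) with quantiles, and MSM1 when centred (−0.0613) and with quantiles (−0.110).

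The difference between libraries 1 and 2 of a strain was correlated between strains, over 1540 pairs taken across all processing sets. The median correlation was 0.01 (−0.39 to 0.30), and 12.1% of pairs were over 0.1. Pairs within a set were not read apart, so a pairing by replicate number within a set was not tested. With a replicate block 13 (Elongator, 6 higher and 7 lower), 13 (thiolation, 3 and 10), 17 (KEOPS, 3 and 14) and 12 (Trm9-Trm112, 0 and 12) members were called, 5 differed between Elongator and thiolation and 445 calls were made over 56 strains. Libraries of deletion strains are numbered 1 and 2 only, so in the block fit wild type rested on its libraries 1 and 2, both of set 1. That fit thus also differs from the others in its wild-type libraries. In it ILS1 in Elongator strains changed by −0.0615. The wild-type means of ILS1 were 533, 436 and 481 RPKM in sets 1, 2 and 3. Wild-type coefficients of variation were 10.5% to 27.3% for mitochondrial and 2.99% to 12.6% for cytosolic genes.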

Other observations

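Of the members, 7 pairs with a deleted gene lie within 10000 bases of it. Besides MES1 in bud32D, ILS1 lies 5716 bases from the gene deleted in kti11D and rose there (0.26, adjusted p 0.000541, limma), ahead of the group change of 0.08. GUS1 lies 2157 bases from the gene deleted in tad1D (−0.04), WRS1 4989 bases from that in trm10D (0.15) and MSY1 3372 bases from that in elp4D (−0.25), and none of these was called. MSD1 (2532 bases, elp4D) and NAM2 (4099 bases, elp1D) were under the footprint filter.

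GCN4 footprints fell in 1 strain, trm112D (−0.76). The GCN4 change was also beyond that of its RNA in the Elongator (1.55) and KEOPS (2.22) groups.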
